A study of Mus with 14 samples.

Results

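The cytosolic ribosomal protein genes were studied as a family in bone marrow progenitors of transplanted mice. Members were chosen by symbol: every gene whose symbol begins with Rpl or Rps and a digit, plus Rplp0, Rplp1, Rplp2 and Rpsa, without pseudogene symbols ending in -ps and without the S6 kinase genes. The rule found 86 of the 32285 genes in the files, and all 86 were also found by symbol in the RefSeq gene table (assembly GRCm38.p6). It admits 2 genes whose products are not structural ribosomal proteins, Rps19bp1 and Rpl7l1. The members were divided into 4 genes known for short transcripts, Rps29, Rps28, Rpl38 and Rpl41, and the other 82. No transcript length was measured here, so this division, and a list of short non-ribosomal mRNAs set beside it, rest on gene names and may miss other short transcripts. Both were chosen with earlier results of these data known, so their calls and their agreement here are not an independent test.

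Cytosolic ribosomes consist of a small subunit built on 1 ribosomal RNA and a large subunit built on several, each with its own set of proteins, named Rps and Rpl. Most of these proteins are made in matched amounts, and their mRNAs carry a terminal oligopyrimidine (TOP) tract at the start that couples their translation to growth signalling. In blood formation the family is known from inherited and acquired anaemias in which 1 copy of a ribosomal protein gene is lost.

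The 14 libraries, 1 per mouse, were made from single marrow cells in droplets and read at the 3' ends of mRNAs, which gives counts of unique molecular identifiers (UMIs), 1 per captured mRNA molecule. The groups were 3 mice labelled MxCre, which carry the interferon-inducible recombinase alone, 4 labelled Dnmt3a, 3 labelled Dnmt3a;Tnfr1KO and 4 labelled Dnmt3a;Tnfr2KO. The last pair is called Tnfr1KO-labelled and Tnfr2KO here. The comparisons ask how the genes differ with the Dnmt3a genotype, and how a label for loss of either tumour necrosis factor receptor on that genotype changes them. All groups shared the rest of the design: per the labels, primary recipients received poly(I:C), marrow was passed on to aged, lethally irradiated hosts, and Lin-Kit+CD45.2+ cells, that is Kit-bearing donor cells without markers of mature blood cells, were sorted 20 weeks after this second transplant, with 12000 cells loaded per library. The labels do not spell out the Dnmt3a allele, or which primary donor each mouse's cells came from. Mice of 1 group could therefore hold cells of the same donor, and the p-values would then measure only the spread between these libraries.

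Total UMIs ran from 62416022 to 162869740 per library, and 66895 cells were kept after filtering, between 1924 and 7265 per library. At most 0.348% of the barcodes of the smaller library were shared between any 2 libraries. Dnmt3a replicate 1 stood apart because 26.5% of its barcodes were kept, and Dnmt3a replicate 4 because 1571 of its 5422 cells were B-lymphoid-like and 808 were maturing neutrophil-like. Kit, on which the cells were sorted, was at 68.9 to 182 counts per 1000000 UMIs (CPM) and Ptprc, which encodes CD45, at 70.0 to 156 CPM. Tnfrsf1b was at 3.92 to 5.44 CPM in the Tnfr2KO libraries and at 10.2 to 17.2 CPM elsewhere. Tnfrsf1a was at 33.1 to 38 CPM in the Tnfr1KO-labelled libraries against 38.1 to 63.8 CPM elsewhere, so the level of this gene does not set that label clearly apart. Dnmt3a itself was at 29.4 to 38.8 CPM in the Dnmt3a libraries and at 21.6 to 30.8 CPM in MxCre. In the receptor-labelled libraries, which carry the same Dnmt3a label, it was at 18.7 to 23.0 CPM, so its level did not follow that label. 3' counts need not show a change elsewhere in a gene, so they do not check an allele.

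Most members were abundant. Of the 86, 83 reached a mean of 10 CPM over the libraries. Members with the most UMIs included Rpl13 (7585 CPM), Rps24 (7019), Rpl32 (6989) and Rps12 (6875). The 5 with the fewest were Rpl10l (0.00248 CPM, 4 UMIs in all), Rpl39l (0.196), Rpl3l (0.470), Rps27rt (46.7) and Rps19bp1 (68.7). The low ones include the retained copies Rpl10l, Rpl39l and Rpl3l, known from testis and from heart and skeletal muscle, whereas their counterparts Rpl10, Rpl39 and Rpl3 were among the abundant members. Copies that share sequence, such as Rps27 with Rps27l and Rps27rt, Rpl36a with Rpl36al, and Rps3a1 with its processed copies, may exchange reads in counting, and their single values are uncertain.

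Ribosomal protein genes took about 1 in 3 UMIs in most libraries, and less in 3 of the 4 Dnmt3a mice. Their share of all UMIs was 34.9%, 32.9% and 33.4% in MxCre replicates 1 to 3. It was 27.5%, 33.7%, 30.3% and 24.6% in Dnmt3a replicates 1 to 4. The Tnfr1KO-labelled replicates 1 to 3 had 33.9%, 33.7% and 34.2%. The 4 Tnfr2KO replicates had 35.3%, 34.2%, 32.5% and 32.7%. Dnmt3a replicate 2 lay among the other groups and replicates 1, 3 and 4 lay below every other library.

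The mean share was 33.7% ± 1.01 (SD, n = 3) for MxCre and 29.0% ± 3.87 (SD, n = 4) for Dnmt3a. It was 34% ± 0.269 (SD, n = 3) for Tnfr1KO-labelled and 33.7% ± 1.30 (SD, n = 4) for Tnfr2KO libraries. The difference of Dnmt3a from MxCre was -4.69 percentage points, with a pooled SD of 3.06 and overlapping values. Tnfr1KO-labelled libraries were 4.93 points above Dnmt3a (pooled SD 3.0), with the closest pair of libraries, Dnmt3a replicate 2 and Tnfr1KO-labelled replicate 2, both at 33.7% and only just apart. Tnfr2KO libraries were 4.64 points above Dnmt3a (pooled SD 2.89), with overlap, and the difference of Tnfr2KO from Tnfr1KO-labelled was -0.290 points, a value that was -0.829 without Tnfr2KO replicate 1 and turned to 0.0907 without Tnfr2KO replicate 3. Without Dnmt3a replicates 1 and 4, which had the lowest shares, the first 3 differences were -1.74, 1.97 and 1.68 points. These are descriptions, and no test was made of a sum over the members.

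The lower share did not come with fewer ribosomal protein UMIs in each Dnmt3a library. Dnmt3a replicates 1 to 4 held 11103, 9513, 7577 and 4682 ribosomal protein UMIs per cell, and MxCre replicates 8616, 6826 and 5799. UMIs of all other genes were 29242, 18739, 17434 and 14337 per cell in Dnmt3a and 16107, 13903 and 11576 in MxCre. Only Dnmt3a replicate 4 held fewer ribosomal protein UMIs per cell than all 3 MxCre libraries, while Dnmt3a replicates 1, 2 and 3 held more UMIs of other genes than all 3. A UMI count per cell also depends on sequencing depth and capture, and in summed counts a smaller number of cells of a type and less RNA per cell cannot be told apart.

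Cells were next divided into lineages by the UMIs of stated marker genes, for example Hlf and Mecom for haematopoietic stem cells and multipotent progenitors (HSC/MPP-like) or Elane and Prtn3 for granulocyte progenitor-like cells. The leading genes of each gated set included markers of its own list, 3 of 10 for HSC/MPP-like cells and 4 to 7 of 10 for the others. The gate thresholds were set after the data had been seen, 22.1% of the kept cells lay near a threshold, 17.4% reached none, and 8.37% reached 1 but were left out as mixed.

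The lower Dnmt3a share was present in most lineages (plot of the share by lineage). In HSC/MPP-like cells it was 34.9%, 34.6% and 34.5% in MxCre replicates 1 to 3, against 27.9%, 33.9%, 31.2% and 28.4% in Dnmt3a replicates 1 to 4. The Tnfr1KO-labelled replicates had 35.5%, 34.5% and 35.3%, and the Tnfr2KO replicates 36.0%, 34.4%, 35.4% and 34.2%. Here all 4 Dnmt3a libraries lay below all 10 others.

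The HSC/MPP-like means were 34.7% ± 0.192 (SD, n = 3) for MxCre and 30.4% ± 2.76 (SD, n = 4) for Dnmt3a. They were 35.1% ± 0.532 (SD, n = 3) for Tnfr1KO-labelled and 35.0% ± 0.878 (SD, n = 4) for Tnfr2KO. In these cells too the Dnmt3a mean of ribosomal protein UMIs per cell was higher than in MxCre (7661 ± 1365 against 5420 ± 1101), and that of other UMIs was higher as well (17865 ± 4760 against 10211 ± 1982). The median depth of the HSC/MPP-like cells was 16826 to 28646 UMIs in Dnmt3a and 11916 to 17238 in MxCre libraries, and its part in the share was not tested.

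**Figure D1:**
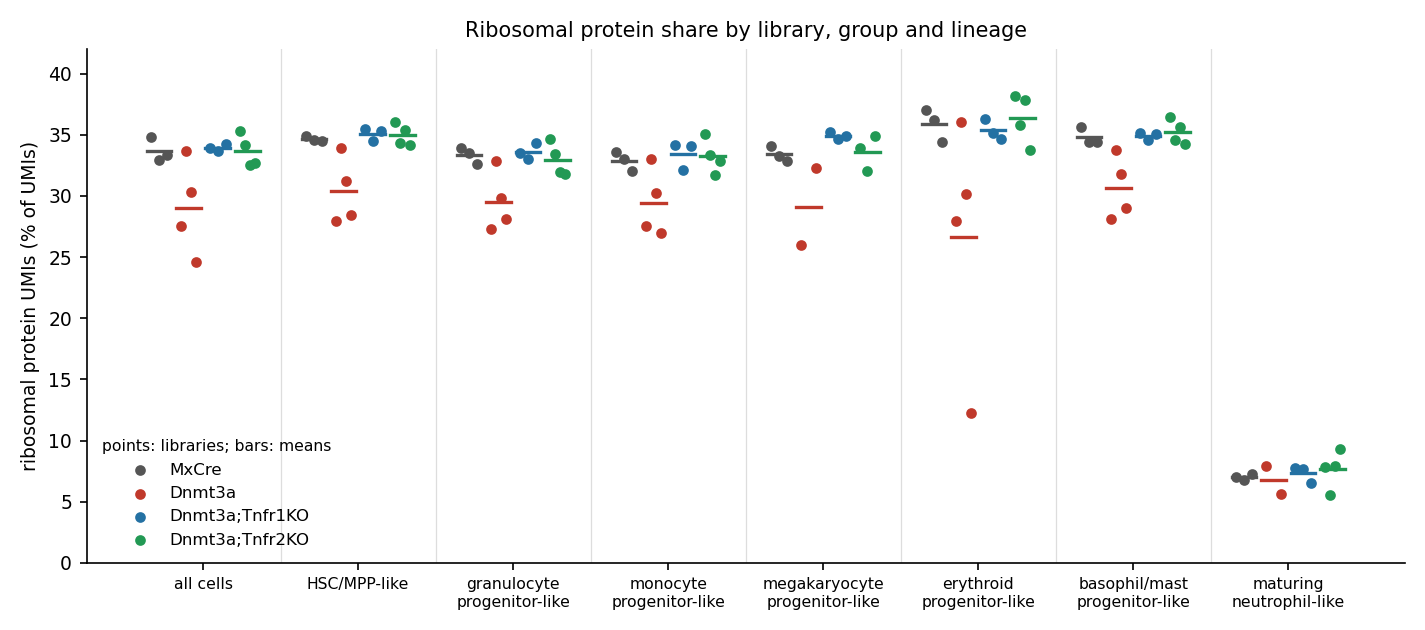
Ribosomal protein UMIs as a percent of all UMIs (y axis) in all cells and in 7 marker-gated lineages (x axis). Points are libraries, colours are the 4 groups and bars are group means. Dnmt3a points reach below the other groups in the progenitor lineages, and all maturing neutrophil-like points lie between 5.54% and 9.27%.

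In granulocyte progenitor-like cells, the largest class with 21180 cells, the share averaged 33.4% ± 0.663 in MxCre, 29.5% ± 2.45 in Dnmt3a, 33.6% ± 0.661 in Tnfr1KO-labelled and 33.0% ± 1.33 in Tnfr2KO. In monocyte progenitor-like cells the same means were 32.9% ± 0.791, 29.5% ± 2.81, 33.5% ± 1.14 and 33.2% ± 1.38. In basophil/mast progenitor-like cells they were 34.8% ± 0.688, 30.7% ± 2.59, 34.9% ± 0.283 and 35.2% ± 1.02. Dnmt3a was the lowest group each time, and replicate 2 was each time its highest library. Dnmt3a values overlapped with MxCre and Tnfr2KO in granulocyte and monocyte progenitor-like cells, and with Tnfr1KO-labelled in monocyte progenitor-like cells. In basophil/mast progenitor-like cells they overlapped with no other group.

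Erythroid progenitor-like cells showed the widest spread. MxCre replicates had 37.0%, 36.2% and 34.4%, and Dnmt3a replicates 27.9%, 36.1%, 30.2% and 12.2%. The 12.2% belonged to the 455 erythroid-like cells of Dnmt3a replicate 4, the library rich in lymphoid and neutrophil-like cells. Tnfr1KO-labelled replicates had 36.3%, 35.1% and 34.6%, and Tnfr2KO replicates 38.2%, 35.8%, 37.9% and 33.7%. Megakaryocyte progenitor-like cells were numerous enough in only 2 Dnmt3a libraries, at 26% and 32.3%, against 33.4% ± 0.647 (n = 3) in MxCre.

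Maturing neutrophil-like cells held the fewest ribosomal protein UMIs. Their share was 7.02% ± 0.226 (SD, n = 3) for MxCre and 6.77% ± 1.57 (SD, n = 2) for Dnmt3a, and 7.32% ± 0.694 (SD, n = 3) for Tnfr1KO-labelled and 7.66% ± 1.55 (SD, n = 4) for Tnfr2KO, with overlap between the groups. B-lymphoid-like cells reached the minimum of 20 cells in 4 libraries, with 19.9%, 23.6% and 22% in Dnmt3a replicates 1, 3 and 4 and 28.7% in Tnfr1KO-labelled replicate 2. Because the lineage makeup differed between libraries, the share was also averaged with equal weight over the 5 lineages found in all 14, which gave 34.3% in MxCre, 29.3% in Dnmt3a, 34.5% in Tnfr1KO-labelled and 34.6% in Tnfr2KO.

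Of the short-transcript genes, Rps29, Rps28 and Rpl38 were among the members that differed most between the groups, and Rpl41 differed less. Rps29 (chr12:69157722-69159186, GRCm38.p6) encodes a small zinc-binding protein of the small subunit. Scaled by edgeR's library factors, it was at 9585, 7769 and 6687 CPM in MxCre and at 2934, 3755, 2616 and 2429 CPM in Dnmt3a. It was at 9102, 9165 and 9600 CPM in Tnfr1KO-labelled libraries and at 11292, 8404, 5799 and 3499 CPM in Tnfr2KO libraries. All Dnmt3a values lay below all MxCre and Tnfr1KO-labelled values, and Tnfr2KO replicate 4 fell within the Dnmt3a range.

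Rps28 (chr17:33823036-33824562), a protein of the small subunit, followed the same order. It was at 6314, 4900 and 4363 CPM in MxCre and at 2209, 2762, 2047 and 1801 CPM in Dnmt3a. It was at 5970, 6094 and 6211 CPM in Tnfr1KO-labelled and at 7715, 5523, 4358 and 2822 CPM in Tnfr2KO. Its Dnmt3a values overlapped with no other library, and Tnfr2KO replicate 4 was the nearest to them.

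Rpl38 (chr11:114667818-114672333), a protein of the large subunit known for its part in the translation of Hox mRNAs, was at 4913, 3690 and 3298 CPM in MxCre and at 1703, 2162, 1573 and 1389 CPM in Dnmt3a. It was at 4889, 4822 and 4604 CPM in Tnfr1KO-labelled and at 6317, 4322, 3528 and 2207 CPM in Tnfr2KO. Rpl41 (chr10:128548110-128549168), the smallest protein of the large subunit, was at 6880, 5658 and 5395 CPM in MxCre and at 4013, 4485, 4468 and 3840 CPM in Dnmt3a. Its values were 7112, 6795 and 6961 CPM in Tnfr1KO-labelled and 7929, 6540, 7424 and 5175 CPM in Tnfr2KO. Rpl41 thus was also lowest in Dnmt3a, with smaller gaps, and for both genes every Dnmt3a library was below every other library.

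Summed over the 4 genes, short transcripts were 2.67%, 2.25% and 2.15% of UMIs in MxCre and 1.28%, 1.39%, 1.10% and 1.05% in Dnmt3a. They were 2.40%, 2.64% and 2.69% in Tnfr1KO-labelled and 3.02%, 2.47%, 1.93% and 1.29% in Tnfr2KO. The log2 ratio of short-transcript to other ribosomal protein UMIs takes out the level of the family as a whole. It was -3.59, -3.77 and -3.86 in MxCre and -4.36, -4.54, -4.73 and -4.49 in Dnmt3a. It was -3.72, -3.56 and -3.55 in Tnfr1KO-labelled and -3.42, -3.68, -3.99 and -4.61 in Tnfr2KO. Tnfr2KO replicate 4 again stood among the Dnmt3a libraries, while its ribosomal protein share of 32.7% was below only the highest of them.

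The mean ratio was -3.74 ± 0.138 (SD, n = 3) for MxCre and -4.53 ± 0.153 (SD, n = 4) for Dnmt3a. It was -3.61 ± 0.0946 (SD, n = 3) for Tnfr1KO-labelled and -3.92 ± 0.513 (SD, n = 4) for Tnfr2KO. The difference from MxCre to Dnmt3a was -0.79 on the log2 scale (pooled SD 0.147), without overlap. Tnfr1KO-labelled libraries were 0.92 above Dnmt3a (pooled SD 0.133), also without overlap. Tnfr2KO libraries were 0.61 above Dnmt3a (pooled SD 0.379), with overlap, and 0.31 below Tnfr1KO-labelled in the mean (a difference of -0.31). Without Tnfr2KO replicate 4 the last pair of differences was 0.84 and -0.08, and without Tnfr2KO replicate 1 it was 0.44 and -0.48.

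**Figure D2:**
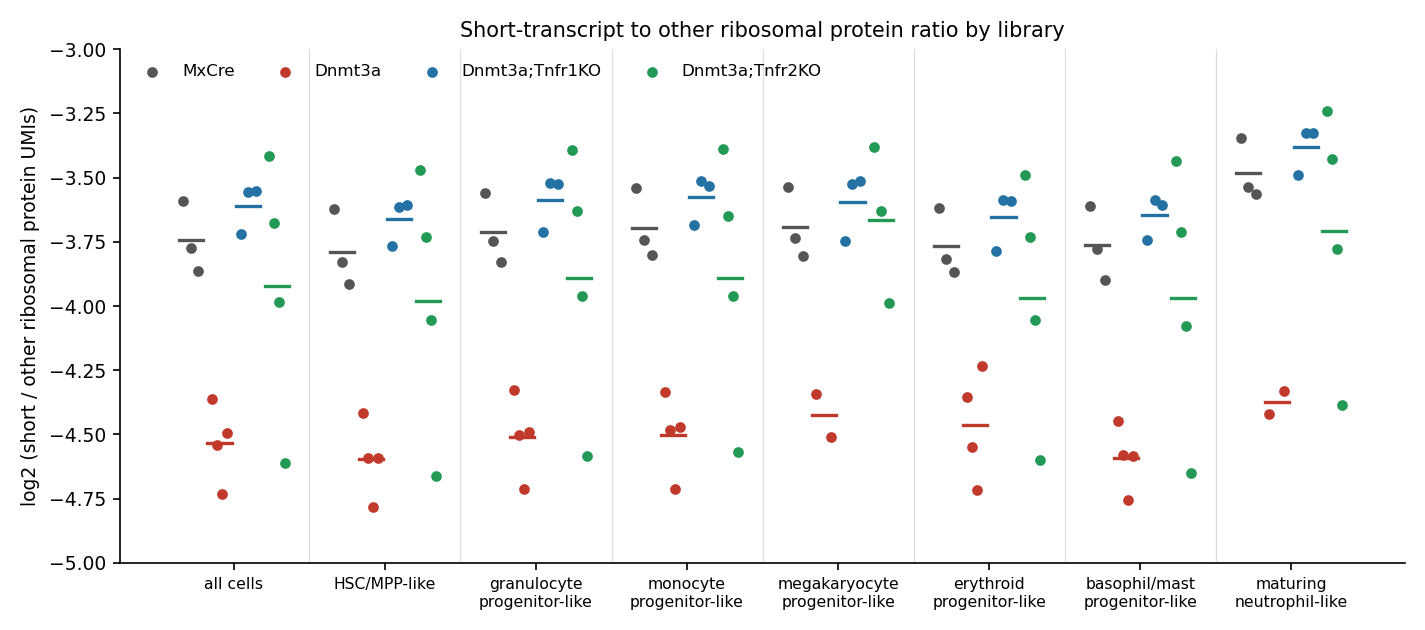
Log2 ratio of the UMIs of Rps29, Rps28, Rpl38 and Rpl41 to those of the other ribosomal protein genes (y axis) in all cells and in 7 lineages (x axis). Points are libraries, colours are the 4 groups and bars are group means. The points keep nearly the same heights over the progenitor lineages and lie higher in maturing neutrophil-like cells (by 0.29 in the mean against HSC/MPP-like cells). The Dnmt3a libraries and Tnfr2KO replicate 4 are lowest.

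The ratio varied more between libraries than between the lineages of a library (plot of the ratio by library). In Dnmt3a replicate 3 it was -4.78 in HSC/MPP-like, -4.71 in granulocyte and monocyte progenitor-like, -4.72 in erythroid and -4.76 in basophil/mast progenitor-like cells. In Tnfr2KO replicate 1 it was -3.47, -3.39, -3.39, -3.49 and -3.44 in the same 5 lineages. In Tnfr2KO replicate 4 it was -4.66, -4.58, -4.57, -4.60 and -4.65. Within each of the 7 lineages, all Dnmt3a libraries lay below all MxCre and all Tnfr1KO-labelled libraries. Cells that reached no gate gave the same picture, at -3.63, -3.81 and -3.89 in MxCre and -4.38, -4.58, -4.75 and -4.54 in Dnmt3a.

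Short transcripts outside the ribosome were measured beside these values. A list of 22 short non-ribosomal mRNAs, among them Cox7c, Tomm7 and Sec61g, took 0.822% to 0.877% of UMIs in Dnmt3a libraries, 0.922% in Tnfr2KO replicate 4 and 1.04% to 1.35% in the other 9. Their log2 ratio to all other non-ribosomal UMIs was -5.87 ± 0.154 (SD, n = 3) for MxCre and -6.38 ± 0.123 (SD, n = 4) for Dnmt3a. It was -5.76 ± 0.00457 (SD, n = 3) for Tnfr1KO-labelled and -5.85 ± 0.251 (SD, n = 4) for Tnfr2KO, with -6.17 in its replicate 4. The low libraries were thus the same inside and outside the ribosome. Whether transcript length, library preparation or RNA quality sets these values was not tested.

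**Figure D3:**
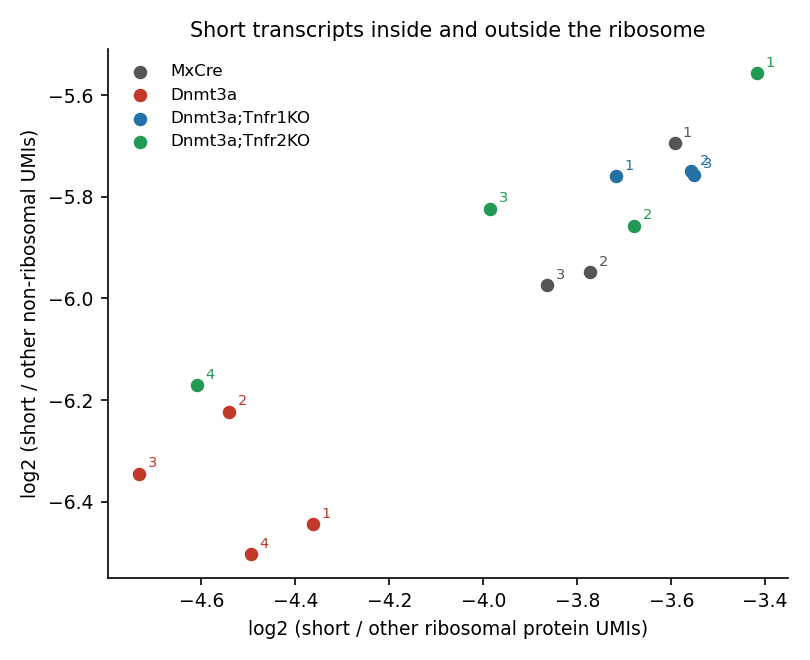
Log2 ratio of short to other non-ribosomal UMIs (y axis) against the log2 ratio of short to other ribosomal protein UMIs (x axis), 1 point per library with its replicate number and coloured by group. The 4 Dnmt3a libraries and Tnfr2KO replicate 4 lie at the lower left.

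The non-members that followed the ratio most closely over the 14 libraries, among 2566 genes of at least 50 CPM, were Pet100 (Pearson r = 0.988), Ndufb1-ps (0.985), Atp5k (0.979), Eif3j1 (0.971) and Tsc22d4 (0.965). Pet100 is an assembly factor of cytochrome c oxidase and Atp5k a subunit of ATP synthase. These are descriptions over 14 libraries that share the groups, and no p-value is given. Among the members, Rps27 (r = 0.970), Rpl37a (0.941) and Rpl39 (0.927) followed it, although they are not on the short list.

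The fit across all genes called 3 of the 4 short-transcript genes in Dnmt3a against MxCre. Of the members, 84 of 86 passed the filter on low counts, all but Rpl39l and Rpl10l. In Dnmt3a against MxCre, edgeR's quasi-likelihood test called 5 members lower and 0 higher at an adjusted p under 0.05, where 1.18% of all 15618 genes tested were called lower (184 genes, with 196 called higher). The 5 were Rps29, Rps28, Rpl38, Rps27 and Rpl37a. The log2 fold change was -1.45 (SE 0.29) for Rps29, adjusted p = 0.0359. It was -1.24 (SE 0.26) for Rps28, adjusted p = 0.0395, and -1.22 (SE 0.27) for Rpl38, adjusted p = 0.0417. Rpl41 was at -0.51 (SE 0.14) and missed the threshold (adjusted p = 0.0683).

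Rps27, a zinc-binding protein of the small subunit, was 1.16 lower on the log2 scale (log2 fold change -1.16, SE 0.25, adjusted p = 0.0395). It was at 3597, 2904 and 2522 CPM in MxCre and at 1264, 1752, 1170 and 1181 CPM in Dnmt3a, without overlap. Rpl37a, a zinc-binding protein of the large subunit, changed by -0.81 (SE 0.20, adjusted p = 0.0489). Its values were 5736, 4798 and 4206 CPM in MxCre and 2674, 3468, 2740 and 2340 CPM in Dnmt3a. Both genes separated the groups completely, as the short-transcript genes did.

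The median log2 fold change of the 80 other members tested was -0.20, and that of all genes tested was 0.03. In all, 21 of 84 members had every Dnmt3a value below every MxCre value, a separation that 9.23% of all genes tested showed in that direction. Only 6 of the 84 had a positive fold change. Rpl35 (-1.07, adjusted p = 0.0736) and Rpl39 (-0.69) were among the uncalled members with a fold change larger in size than that of Rpl41. At an unadjusted p under 0.05 there were 27 of 84 members, and 3689 of the 15618 genes.

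The members named here for disease, signalling or structure did not pass the test in Dnmt3a against MxCre over all cells. Rps19, mutated in Diamond-Blackfan anaemia, was at 5803, 5411 and 5198 CPM in MxCre and at 3976, 5587, 5136 and 3985 CPM in Dnmt3a (log2 fold change -0.23, adjusted p = 0.308). Rps14, lost in the myelodysplastic syndrome with a deletion on the long arm of chromosome 5, was at -0.29 (adjusted p = 0.235). Rps6, the target of the S6 kinases, was at -0.20 (adjusted p = 0.394). Rpl5 and Rpl11, which bind Mdm2 when ribosome assembly fails, were at -0.04 and -0.14 (adjusted p = 0.901 and 0.615). The stalk proteins Rplp0, Rplp1 and Rplp2, which recruit elongation factors, were at 0.00, -0.31 and -0.49 (adjusted p = 0.995, 0.141 and 0.0709). Within lineages, Rplp2 was called lower in HSC/MPP-like, granulocyte and basophil/mast progenitor-like cells, and Rplp1 in granulocyte progenitor-like cells. Rpsa, also known as the laminin receptor precursor, was at -0.15 (adjusted p = 0.566), and Rps19bp1, a nucleolar partner of Rps19, at -0.26 (adjusted p = 0.268).

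Among the paralogue pairs only Rps27, described above, was called. Rpl22, whose loss impairs lymphoid development, was at -0.31 (adjusted p = 0.214) and its paralogue Rpl22l1 at -0.28 (adjusted p = 0.16). Rps27l, a p53 target, was at -0.14 (adjusted p = 0.547), beside the called -1.16 of Rps27. The difference between the paralogues itself was not tested. Rpl39 was at -0.69 (SE 0.18, adjusted p = 0.0608), Rpl3 at -0.03 and Rpl7l1 at 0.03.

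**Figure D4:**
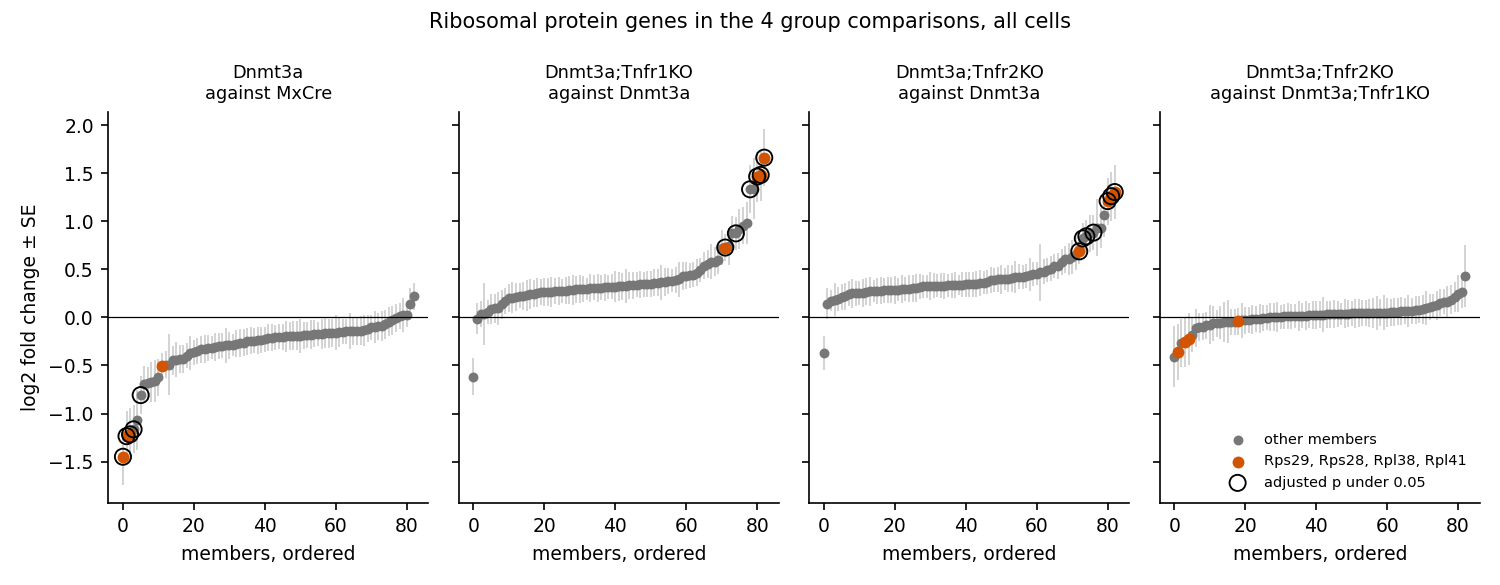
Log2 fold changes with standard errors (y axis) of the 83 ribosomal protein genes of at least 10 CPM, ordered within each panel (x axis), in the 4 group comparisons over all cells. Rps29, Rps28 and Rpl38, in the colour of the short-transcript genes, lie near the low end for Dnmt3a against MxCre (Rps29 at -1.45) and near the high end where the receptor-labelled groups are set against Dnmt3a (Rps29 at 1.66 and 1.31). Rpl41 (-0.51, 0.73 and 0.69) lies further in.

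Both receptor-labelled groups differed from Dnmt3a in the opposite direction. These comparisons share the 4 Dnmt3a libraries with each other and with the comparison against MxCre, so their values are set side by side and are not independent. Tnfr1KO-labelled against Dnmt3a gave 6 members called higher and 0 lower, where 0.327% of all genes tested were called higher. Tnfr2KO against Dnmt3a gave 7 called higher and 0 lower, where 0.615% of all genes were called higher.

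The 4 short-transcript genes were called in both. Rps29 was at 1.66 (SE 0.30, adjusted p = 0.0335) in Tnfr1KO-labelled and at 1.31 (SE 0.28, adjusted p = 0.0477) in Tnfr2KO. Rps28 was at 1.47 (adjusted p = 0.0335) and 1.21 (adjusted p = 0.0427), Rpl38 at 1.48 (adjusted p = 0.0377) and 1.26 (adjusted p = 0.0427), and Rpl41 at 0.73 (adjusted p = 0.0454) and 0.69 (adjusted p = 0.039). Of the others, Rpl36, a large-subunit protein, was called in both, at 0.88 (adjusted p = 0.0454) and 0.82 (adjusted p = 0.0399). Rps27 was called in Tnfr1KO-labelled at 1.33 (adjusted p = 0.0426) and was at 1.07 (adjusted p = 0.0511) in Tnfr2KO. Rpl37a and Rpl39, which lines the exit tunnel for new proteins, were called in Tnfr2KO at 0.88 (adjusted p = 0.0477) and 0.84 (adjusted p = 0.0435) and were at 0.96 (adjusted p = 0.0503) and 0.88 (adjusted p = 0.052) in Tnfr1KO-labelled.

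The rest of the family leaned the same way at smaller size. The fold change was positive for 81 of 84 members in Tnfr1KO-labelled and for 82 of 84 in Tnfr2KO, with medians of 0.32 and 0.35 over the members and of -0.05 and -0.03 over all genes. Values of the receptor-labelled group lay wholly above Dnmt3a for 34 members in Tnfr1KO-labelled, where 6.12% of all genes did, and for 31 in Tnfr2KO, where 3.97% did. Of the named members that were not called, Rps19 was at 0.31 and 0.32, Rpl22 at 0.43 and 0.48, Rplp0 at 0.27 and 0.29, and Rplp2 at 0.60 and 0.54 (adjusted p = 0.0692 and 0.0634).

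Rps3a1, a small-subunit protein singled out after its values were seen, ran the other way. It was at 5757, 5288 and 5207 CPM in MxCre and 3923, 5598, 5751 and 4362 CPM in Dnmt3a. It was at 2916, 3220 and 3470 CPM in Tnfr1KO-labelled and 2792, 3190, 4143 and 5048 CPM in Tnfr2KO. All Tnfr1KO-labelled values lay below all Dnmt3a values, the only member for which they did, where 8.1% of all genes did. The fold change of -0.62 (SE 0.19) did not pass the test over all cells (adjusted p = 0.126), nor did -0.37 in Tnfr2KO (adjusted p = 0.223). Rps3a1 has near-identical copies in the genome that could take or give reads.

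Between the receptor-labelled groups no member was called by edgeR's quasi-likelihood test, none reached an unadjusted p under 0.05, and DESeq2 called 0, where 0.198% of all genes were called by edgeR. The short-transcript genes were at -0.36 for Rps29, -0.26 for Rps28, -0.22 for Rpl38 and -0.04 for Rpl41. These sizes rested on single Tnfr2KO libraries: in the same order they were -0.65, -0.52, -0.51 and -0.12 without replicate 1 and -0.13, -0.05, -0.01 and 0.07 without replicate 4. Rpl5, Rpl13a and Rpl23a had all Tnfr2KO values above all Tnfr1KO-labelled values, 3 of 84 members, where 3.13% of all genes did, and they are named because the count is small.

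The calls over all cells depended on which libraries entered. Without Dnmt3a replicate 1 the count of called members was 0 in each of the 3 comparisons that use Dnmt3a, and without Dnmt3a replicate 2 it was 15 for Dnmt3a against MxCre, 16 for Tnfr1KO-labelled and 33 for Tnfr2KO. Over all genes tested the calls were 1, 17 and 39 without replicate 1 and 1257, 321 and 800 without replicate 2. The Rps29 call was lost in 5 of 7 fits that left out 1 compared library for Dnmt3a against MxCre (each MxCre library and Dnmt3a replicates 1 and 3), in 6 of 7 for Tnfr1KO-labelled (all but Dnmt3a replicate 2) and in 5 of 8 for Tnfr2KO (Dnmt3a replicates 1 and 4 and Tnfr2KO replicates 1 to 3). In these fits the Rps29 fold change lay between -1.59 and -1.30, between 1.58 and 1.80, and between 0.99 and 1.53. It was at -1.46 (adjusted p = 0.0698) without replicate 1 and -1.59 (adjusted p = 0.0187) without replicate 2, against MxCre. With both Dnmt3a replicates 1 and 4 left out it was -1.34 (adjusted p = 0.154), and 0 members were called in any of the 3 comparisons, where 3, 16 and 29 of all genes were.

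In HSC/MPP-like cells, 16 members were called lower in Dnmt3a than in MxCre, where 7.33% of all genes were called lower. They were the 4 short-transcript genes with Rps27, Rpl35, Rpl37a, Rps21, Rpl37, Rpl39, Rpl36, Rpl27, Rplp2, Rps26, Rpl34 and Rpl35a. Rps29 was at -1.41 (SE 0.26, adjusted p = 0.0039), Rps28 at -1.20 (adjusted p = 0.0039), Rpl38 at -1.15 (adjusted p = 0.0062) and Rpl41 at -0.40 (adjusted p = 0.043). The median of the 79 other members tested was -0.14. Without 1 Dnmt3a or MxCre library at a time the count of called members ran from 7 to 24. Counts over all genes are not set beside this range or the like ranges for lineages below. These ranges are therefore not a result about the members alone.

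In HSC/MPP-like cells of the receptor-labelled groups the short-transcript genes were higher than in Dnmt3a. Tnfr1KO-labelled gave 11 members called higher, where 0.617% of all genes were, with Rps29 at 1.59 (adjusted p = 0.0085). Tnfr2KO gave 13 called higher, where 0.585% of all genes were, with Rps29 at 1.23 (adjusted p = 0.028). All 4 short-transcript genes were called in both, and so were Rpl36, Rpl39, Rpl37, Rpl37a, Rps21 and Rps27. Leaving out 1 library at a time, the counts ran from 2 to 26 and from 0 to 35.

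Granulocyte progenitor-like cells gave the highest number of called members. Dnmt3a against MxCre had 20 called lower, where 2.79% of all genes were, and Rps29 was at -1.53 (SE 0.28, adjusted p = 0.0162). Tnfr1KO-labelled against Dnmt3a had 21 called higher, where 2.27% of all genes were, and 1 called lower, where 1.95% were. The latter was Rps3a1, at -0.66 (SE 0.17, adjusted p = 0.0445), a call lost without Tnfr1KO-labelled replicate 2, where 0 members were called. Tnfr2KO against Dnmt3a had 23 called higher, where 2.21% of all genes were, among them Rpl22, Rps27l and Rps19bp1. Leaving out 1 library at a time, these counts ran from 0 to 40, 0 to 38 and 3 to 46.

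Megakaryocyte progenitor-like cells had 10 members called lower in Dnmt3a than in MxCre, where 1.54% of all genes were. They had 11 called higher in Tnfr1KO-labelled and 11 in Tnfr2KO than in Dnmt3a, where 0.599% and 0.86% of all genes were, and only Dnmt3a replicates 1 and 2 entered. Tnfr2KO replicate 4, whose short-transcript ratio lay among the Dnmt3a libraries, had 13 such cells and did not enter either. The Tnfr2KO count here thus rests on other libraries than in the other lineages. Basophil/mast progenitor-like cells had 12 called lower in Dnmt3a than in MxCre, where 0.718% of all genes were. They had 11 and 14 called higher than in Dnmt3a, where 0.348% and 0.651% were. In both lineages all 4 short-transcript genes were called in the 3 comparisons. The megakaryocyte counts fell to 4 or 5 without any 1 MxCre library in the first comparison, and ran from 4 to 7 and from 4 to 11 without 1 receptor-labelled library in the others, where no Dnmt3a library was left out. The basophil/mast counts lay between 0 (without MxCre replicate 1) and 18, between 4 and 16, and between 6 and 23, and were 0, 7 and 9 under the doubled gate. Where no direction is given, counts under alternatives take calls in both directions together.

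Monocyte progenitor-like cells had 8 members called higher in each receptor-labelled group than in Dnmt3a, where 0.435% and 0.49% of all genes were, again with all 4 short-transcript genes. Leaving out 1 library at a time, these counts ran from 0 to 25 and from 0 to 30, with 0 in both without Dnmt3a replicate 1 or 3, and the doubled gate gave 3 and 0. In Dnmt3a against MxCre they had 0 by edgeR's quasi-likelihood test, where 0.00907% of all genes were called, 31 members at an unadjusted p under 0.05 (1547 of all 11028 genes) and 17 by DESeq2 (234 of all genes). Rps29 was there at -1.43 (SE 0.27, adjusted p = 0.0664). Maturing neutrophil-like cells had 1 member called lower in Dnmt3a than in MxCre, Rps29 at -1.55 (adjusted p = 0.03), where 0.0295% of all genes were called lower. They had 3 called higher in Tnfr1KO-labelled (Rpl38, Rps28 and Rps29) and 2 in Tnfr2KO (Rps29 and Rps21), where 0.0885% and 0.0737% of all genes were. Only Dnmt3a replicates 3 and 4 entered for this lineage. The first count was 0 without any 1 MxCre library, the other counts ran from 0 to 3 and from 0 to 17 without 1 receptor-labelled library, and all 3 were 0 with the replicate block.

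Erythroid progenitor-like cells had no member called by edgeR's quasi-likelihood test in the 3 comparisons that use Dnmt3a, where 0%, 0.0272% and 0.0996% of all genes were called. At an unadjusted p under 0.05 there were 52, 46 and 69 of 83 members and 1773, 1315 and 1809 of all 11047 genes. DESeq2 called 17, 16 and 22 members and 204, 87 and 114 of all genes. Rps29 was at -1.51 (SE 0.30, adjusted p = 0.18) against MxCre, a size like that in the other lineages. Some edgeR fits that left out a single library did call members in each of the 3 comparisons, with ranges given further below. Between the receptor-labelled groups no member was called in any of the 7 lineages by edgeR, with 0 or 1 member at an unadjusted p under 0.05 in each lineage and 0 by DESeq2. Of all genes edgeR called 0.208% there in HSC/MPP-like, 0.334% in granulocyte, 0.136% in monocyte, 0.126% in megakaryocyte, 0.0362% in erythroid and 0.0449% in basophil/mast progenitor-like cells and 0.0147% in maturing neutrophil-like cells.

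Over the 7 lineages the Rps29 log2 fold change for Dnmt3a against MxCre ran from -1.55 in maturing neutrophil-like to -1.31 in megakaryocyte progenitor-like cells. For Tnfr1KO-labelled against Dnmt3a it ran from 1.54 to 1.66, and for Tnfr2KO against Dnmt3a from 1.20 to 1.30. Rps3a1 was negative against Dnmt3a in all 7 lineages in both receptor-labelled groups, from -0.68 in monocyte to -0.38 in neutrophil-like cells for Tnfr1KO-labelled and from -0.46 to -0.16 for Tnfr2KO. Of these Rps3a1 values only that of Tnfr1KO-labelled granulocyte progenitor-like cells passed the test, and not without Tnfr1KO-labelled replicate 2.

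The composition of the family was otherwise steady. As a share of all ribosomal protein UMIs, 61 of the 83 members of at least 10 CPM differed less than 1.5-fold between the highest and the lowest of the 14 libraries. Rps15a, Rpl24 and Rpl28 varied least, at 1.11-fold each. In 9 members it varied more than 2-fold: Rps29 (3.28-fold), Rpl38 (3.05), Rps27rt (2.97), Rps28 (2.86), Rpl35 (2.73), Rps3a1 (2.73), Rps27 (2.68), Rps21 (2.13) and Rps2 (2.06). Rpl35, Rps21, Rps2 and Rps27rt are named here because of these values. Rpl35, a large-subunit protein, was at 3037, 2416 and 2264 CPM in MxCre, 899, 1570, 1291 and 1138 in Dnmt3a, 3297, 3161 and 2845 in Tnfr1KO-labelled and 4080, 2457, 1424 and 1393 in Tnfr2KO. It put Tnfr2KO replicates 3 and 4 within the Dnmt3a range.

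Over all cells, other genes of the translation machinery gave few calls by edgeR's quasi-likelihood test. Of 21 tested translation factors and other TOP mRNAs, 1 was called in Dnmt3a against MxCre, Pabpc1, the poly(A)-binding protein, which was higher (log2 fold change 0.50, adjusted p = 0.0497). The median of the list was -0.06. Of 30 genes for ribosome assembly and rRNA synthesis 0 were called (median 0.09), with 4 higher and 1 lower at an unadjusted p under 0.05. Of 78 mitochondrial ribosomal protein genes 0 were called (median -0.05), with 5 lower at an unadjusted p under 0.05. Against Dnmt3a, none of the 3 lists had a called gene in either receptor-labelled group, with medians of 0.20, 0.08 and 0.23 in Tnfr1KO-labelled and of 0.25, 0.16 and 0.27 in Tnfr2KO. At an unadjusted p under 0.05, 20 of the mitochondrial genes were higher in Tnfr1KO-labelled and 33 in Tnfr2KO, beside 3076 and 3647 of all 15618 genes in either direction. The 22 short non-ribosomal mRNAs had 7 called lower in Dnmt3a than in MxCre (median -0.57), where 1.18% of all genes were. Atp5k, Pet100 and Ndufa3 were among the 7. The short mRNAs had 9 called higher in Tnfr1KO-labelled than in Dnmt3a (median 0.74) and 13 in Tnfr2KO (median 0.71). Of all genes 0.327% and 0.615% were called higher there. Mrps21 is on both the mitochondrial and the short list. Within lineages, Dnmt3a against MxCre in HSC/MPP-like cells had 5 of 30 assembly genes called higher (median 0.24) and 0 lower, 1 of 21 translation factor and TOP genes higher and 2 lower, and 2 of 78 mitochondrial genes higher and 1 lower, beside 745 of all 12485 genes called higher and 7.33% lower. In granulocyte progenitor-like cells 2 assembly genes were higher, 1 translation factor or TOP gene was higher and 2 were lower, and 6 mitochondrial genes were lower, beside 387 of all 13175 genes called higher and 2.79% lower. There 4 and 6 mitochondrial genes were higher in Tnfr1KO-labelled and Tnfr2KO than in Dnmt3a, beside 2.27% and 2.21% of all genes. In the other lineages and comparisons with Dnmt3a, each of these 3 lists had at most 3 called genes.

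The short non-ribosomal mRNAs were called in more lineages. For Dnmt3a against MxCre, 13 of the 22 were lower in HSC/MPP-like, 20 in granulocyte, 16 in megakaryocyte and 13 in basophil/mast progenitor-like cells, where 7.33%, 2.79%, 1.54% and 0.718% of all genes were. None was called in monocyte or erythroid progenitor-like or maturing neutrophil-like cells. Of all genes, edgeR called 0.00907% and 0% in either direction in the first 2 of these, and 0.0295% lower in the last. The list medians there were -0.58, -0.63 and -0.64, beside -0.43 in HSC/MPP-like cells. The lack of calls therefore does not mean unchanged levels. In Tnfr1KO-labelled and Tnfr2KO, 8 and 6 were higher than in Dnmt3a in HSC/MPP-like, 20 and 19 in granulocyte, 7 and 8 in monocyte, 8 and 14 in megakaryocyte and 3 and 10 in basophil/mast progenitor-like cells. In the same order, 0.617% and 0.585%, 2.27% and 2.21%, 0.435% and 0.49%, 0.599% and 0.86%, and 0.348% and 0.651% of all genes were called higher. Maturing neutrophil-like cells had 1 and 0, beside 0.0885% and 0.0737% of all genes. Erythroid progenitor-like cells had none, where 0.0272% and 0.0996% of all genes were called in either direction (list medians 0.63 and 0.55).

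Lineages were compared with HSC/MPP-like cells of the same mouse. The largest difference was in maturing neutrophil-like cells, whose ribosomal protein share was 26.8 percentage points lower (a difference of -26.8 ± 2.03, SD over 12 mice), and lower in 12 of 12. By edgeR's quasi-likelihood test with the mouse as a block, 83 of the 84 members tested were called lower, where 47.8% of all 12176 genes tested were. Rpl12 was at 446 CPM against 3761 in HSC/MPP-like cells (log2 fold change -2.16), Rpl14 at 383 against 3051 (-2.13) and Rpl3 at 482 against 3739 (-2.08). In comparisons between lineages the CPM are of all UMIs and the fold changes are on the scale of edgeR's library factors, so the ratio of the CPM differs from the fold change. Of the short-transcript genes Rps29 was at -0.70, Rpl41 at -1.21, Rpl38 at -1.23 and Rps28 at -1.5, beside a median of -1.36 over the members and -0.28 over all genes. The 1 member called higher, where 34.2% of all genes were, was Rpl3l, at 4.08 (adjusted p = 6.8e-15) and at very low counts. Neutrophil-like cells were gated on very abundant transcripts such as S100a8 and S100a9. With marker genes left out of the total the share difference was -21.3 points.

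**Figure D5:**
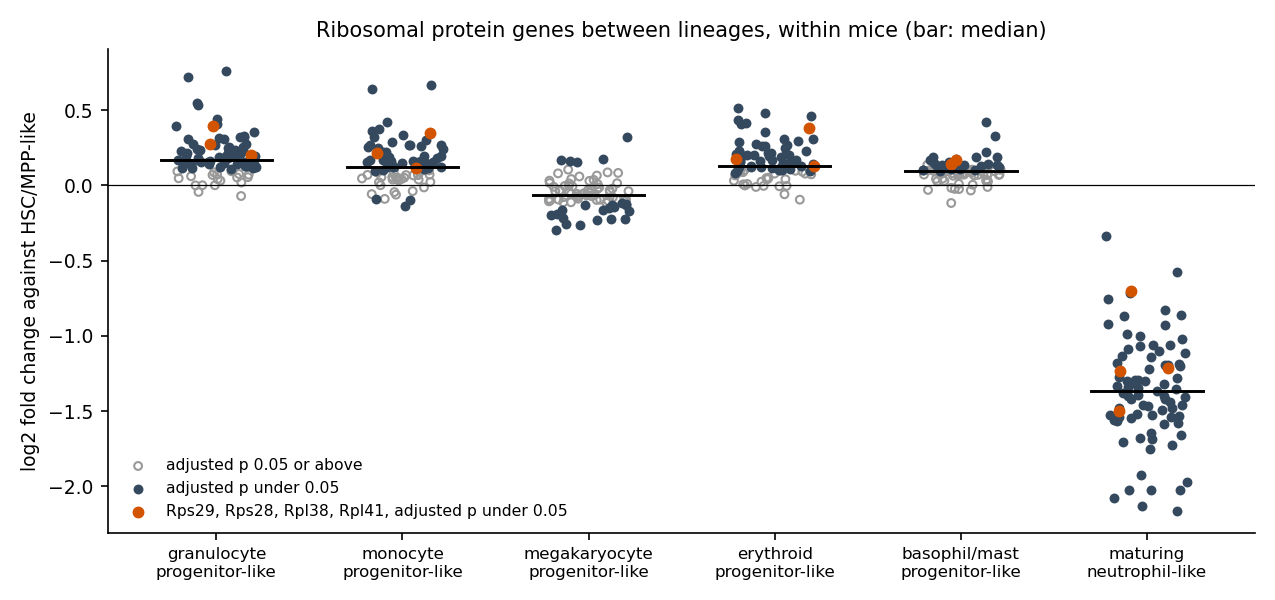
Log2 fold change of each ribosomal protein gene against HSC/MPP-like cells of the same mice (y axis) in 6 lineages (x axis). Points are members without Rpl3l, the short-transcript genes in their own colour, and bars are medians. Maturing neutrophil-like points lie far below 0, while the other lineages stay near it.

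Among progenitors the differences were small and depended on the scale. In granulocyte progenitor-like cells the share was lower by a mean difference of -1.42 ± 0.799 points, in 14 of 14 mice, and by -0.396 without marker genes. On the scale of edgeR's library factors, however, 64 members were called higher, where 35.5% of all genes were, and 0 lower, where 45.1% were, with a median of 0.17 beside -0.08 over all genes. The members of highest fold were Rpl36al (1548 against 1077 CPM, log2 fold change 0.76, SE 0.041, adjusted p = 7.93e-30), Rps27l (810 against 579, 0.72) and Rpl7l1 (126 against 102, 0.55).

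Monocyte progenitor-like cells were alike. The share difference was -1.49 ± 0.831 points, lower in 14 of 14 mice, while 50 members were called higher, where 35.4% of all genes were, and 3 lower, where 40.4% were. Of those of at least 10 CPM, Rps27l (0.67), Rpl36al (0.64) and Rplp0 (0.42) led the higher ones, and the scarce Rpl3l was called at 1.08. Rps24 (-0.14, adjusted p = 0.0113), Rps14 (-0.10, adjusted p = 0.0273) and Rpl17 (-0.09, adjusted p = 0.0416) were the lower ones.

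Megakaryocyte progenitor-like cells were the lineage besides neutrophil-like cells with more members called lower than higher. There were 20 lower, where 29.6% of all genes were, and 5 higher, where 24.2% were, both near or under the share over all genes, and the gate that asks for double the marker UMIs gave 10 lower and 20 higher. Of those of at least 10 CPM, Rps9 (-0.30), Rpl10 (-0.26) and Rpl37 (-0.25) led the lower members, beside the scarce Rpl3l at -3.07, and Rpl21 (0.32), Rps27l (0.18) and Rps15 (0.17) the higher ones. Their share was lower by -1.16 ± 0.847 points in the mean over 11 mice, and lower in 10.

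In erythroid and basophil/mast progenitor-like cells the mean share differed from that of HSC/MPP-like cells by less than its spread over mice. The erythroid difference was -0.349 ± 4.71 points, lower in 6 and higher in 8 mice, a spread that holds the 12.2% of Dnmt3a replicate 4. Without that library the difference turned to 0.870 points, and without Tnfr2KO replicate 3 it was -0.564. Of the members 56 were called higher there, where 37% of all genes were, led by Rps19bp1 (0.51), Rpl14 (0.48) and Rplp0 (0.46), and 1 lower, the scarce Rpl3l, where 40.8% were. The basophil/mast difference was 0.153 ± 0.337 points, higher in 9 of 14 mice, and it turned to -1.04 points under the gate that asks for double the marker UMIs. There 27 members were called higher, where 22.7% of all genes were, led by Rpl10 (0.42), Rpl36al (0.33) and Rpl14 (0.22), and 0 were called lower, where 24.2% were. The count of called members moved widely when a single library was left out or no filter was used, as given further below.

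The log2 ratio of short to other members hardly differed between progenitor lineages. Against HSC/MPP-like cells it was higher by 0.08 in granulocyte, 0.09 in monocyte, 0.08 in megakaryocyte, 0.05 in erythroid and 0.01 in basophil/mast progenitor-like cells. It was higher by 0.29 in maturing neutrophil-like cells. Each of these is smaller than the 0.79 that separated the Dnmt3a and MxCre means.

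The rare paralogues were seen in few cells. Rpl39l (chr16:10170197-10174911), the autosomal copy of the X-linked Rpl39, had 323 UMIs in all kept cells of the series. Of these 261 were in 59 of the 6150 cells of Tnfr1KO-labelled replicate 1 (0.959% of cells, exact 95% interval 0.731% to 1.24%, which covers counting error only), with up to 12 in 1 cell. Another 54 were in 6 of the 6440 cells of Tnfr2KO replicate 4, with up to 18 in 1 cell, and no other library held more than 3. In Tnfr1KO-labelled replicate 1 the gene had 185 UMIs in 34 of 3030 granulocyte progenitor-like cells and 14 in 4 of 375 HSC/MPP-like cells. None was found in its 255 erythroid-like cells, a count of 0 that allows up to 1.18% of cells with a UMI and does not bound expression. The 255 were shallower, with a median of 7404 UMIs against 24194 in the granulocyte progenitor-like cells.

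Rpl3l (chr17:24727826-24736143), the copy known from striated muscle, had 671 UMIs in the series. Dnmt3a replicate 4 held 178 of them in 162 of its 5422 cells (2.99% of cells), and the other libraries held 22 to 70 UMIs each. Within Dnmt3a replicate 4 they were in 86 of 1571 B-lymphoid-like cells (5.47%, exact 95% interval 4.4% to 6.72%), in 22 of 808 maturing neutrophil-like cells (2.72%, 1.71% to 4.09%) and in 13 of 917 granulocyte progenitor-like cells (1.42%, 0.757% to 2.41%). The B-lymphoid-like cells had the highest share at a median of 5703 UMIs, below the 47566 of the granulocyte progenitor-like cells. In its 455 erythroid-like cells the share was 0.440% (2 cells) at a median of 10661 UMIs. How much of these shares is free RNA was not tested. Averaged over mice, the level was 2.48 ± 2.07 CPM (SD, 12 mice, from 0 to 5.58) in maturing neutrophil-like, 0.356 ± 0.326 CPM (14 mice) in HSC/MPP-like and 0.0283 ± 0.0938 CPM (11 mice) in megakaryocyte progenitor-like cells. Rpl10l, known from testis, was at 4 UMIs in all, too few to compare.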

How the data were processed

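The deposited files hold whole-number UMI counts per gene and cell barcode for 14 libraries, with lists of barcodes and gene names beside them (other values, as deposited). Per the submitters' processing notes, Cell Ranger 6.0.0, bcl2fastq 2.20.0.422 and the builds GRCm38 and mm10 were used. Cells needed 1000 UMIs or more, 500 genes or more and at most 10% mitochondrial UMIs, and called doublets were removed at 0.8% per 1000 cells. A cell joined a lineage if that lineage's marker UMIs per 10000 passed a gate (6 for HSC/MPP-like to 500 for maturing neutrophil-like), rested on at least 3 UMIs and the next list reached at most 0.6 of it. Libraries needed 20 cells in a lineage. UMIs were summed per library and tested with edgeR 4.0.16 in R 4.3.3 (quasi-likelihood, TMM, filterByExpr, 4 groups in 1 model, Benjamini-Hochberg adjustment over all genes tested in a comparison, called at an adjusted p below 0.05), or with the mouse as a block between lineages. CPM by library in the group comparisons were scaled by the TMM factors, and other CPM (means over all libraries, targeted genes, lineages, scarce paralogues) are per all UMIs. Shares and ratios are given as means with SDs. Simulated data were drawn with the same spread for every gene and no outlying library. There the group fit recovered 66% of genes changed 2-fold and 6% of those changed 1.5-fold, with 4% false calls. The lineage fit recovered 100% and 85%, with 5.61% false calls and both lineages in every mouse. These rates need not hold for lineages with few cells or fewer mice.

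The genes named were the 4 short-transcript genes, 6 paralogue pairs, 10 members known from disease or structure, the 5 highest and 5 lowest in mean CPM, up to 5 called members in each direction per group comparison and up to 3 per lineage of at least 10 CPM, and 5 non-members by r with the ratio. A gene that this rule names is not reported here. The members, lists and rules were chosen with earlier results of these data known. Alternatives were DESeq2 1.42.0, no filter, a replicate block, stricter cells or gates, doublets kept, and leaving out libraries. No nucleotide or protein sequences of the members were used here.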

Additional observations from a re-analysis of the deposited data

Results flagged for a closer look

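In each group of 4 libraries the highest and lowest values of the measures reported were checked for a gap to the next library that is large against the range of the group. Of 46 such checks 3 stood out, and chance gives about 1 in 20. In Dnmt3a, Rpl3l ran from 0.241 to 1.73 CPM, with the highest library, replicate 4, separated by a gap of 0.8326 of the range. Rpl39l in Dnmt3a ran from 0 to 0.0291 CPM, with a gap of 1, because a single library held any UMI. In Tnfr2KO, Rpl39l ran from 0 to 0.365 CPM, with a gap of 0.9787, and the high library was replicate 4.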

How the results depend on the processing

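A share or ratio difference was taken as close if it moved by less than its SD over mice. A count was taken as close if equal or within 1.5-fold, so counts with no call in both settings entered as close. By this rule 817 alternatives for whole comparisons stayed close to the value reported and 192 moved. A wide SD lets large moves pass. The erythroid share difference of Dnmt3a against MxCre, -9.29 (pooled SD 7.93), was -4.50 without Dnmt3a replicate 4. Of the alternatives for single genes, 249 kept their direction and side of the threshold, 138 kept the direction but missed the threshold, 2 passed it newly and 3 changed sign. The short-transcript fold changes kept their direction in the comparisons with Dnmt3a under every alternative run, Rps29 from -1.59 to -1.24 against MxCre. The calls of Rps29, Rps28 and Rpl38 were lost in 7 of 15 alternatives there. Rpl39l, Rpl3l and Rpl10l were under 1 CPM in the mean, which limits the precision of their values. The deviations of same-numbered replicates from their group means had correlations of -0.22 to 0.25. Whether the replicate numbers pair the mice cannot be told from these values, and the main fits between groups treated them as unpaired. The cause of the moves below was not tested.

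The share difference of Tnfr2KO against Dnmt3a was 1.68 without Dnmt3a replicates 1 and 4, an alternative chosen after seeing the data. Without Rpl41 the ratio differences were -1.05 for Dnmt3a against MxCre and 1.19 for Tnfr1KO-labelled against Dnmt3a. In maturing neutrophil-like cells the share differences of Dnmt3a against MxCre were -1.64 with stricter cells and -1.53 without marker genes. That of Tnfr1KO-labelled against Dnmt3a was 1.95 without marker genes, that of Tnfr2KO against Dnmt3a 3.37 with stricter cells and 2.51 without marker genes, and that of Tnfr2KO against Tnfr1KO-labelled 2.06 with stricter cells and 2.2 with doublets kept. Against HSC/MPP-like cells the share difference was -0.396 in granulocyte progenitor-like cells without marker genes, -2.44 in monocyte and -1.04 in basophil/mast progenitor-like cells under the doubled gate, and -24.5 with doublets kept and -21.3 without marker genes in neutrophil-like cells.

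Called members over all cells, in the order Dnmt3a against MxCre, Tnfr1KO-labelled against Dnmt3a and Tnfr2KO against Dnmt3a, were 18, 27 and 36 with DESeq2 and 0, 0 and 0 without Dnmt3a replicates 1 and 4. They were 3 and 3 with the replicate block in the first 2, 0 with only the compared groups in the model in the first and the last, and 2 without a filter in the last. Within lineages, the replicate block gave 10 in HSC/MPP-like cells (first comparison), 8, 11 and 15 in granulocyte, 4 (first) and 14 (last) in monocyte, 6 (first) in megakaryocyte, 5 (last) in erythroid and 4 (first) in basophil/mast progenitor-like cells, and 0 in all 3 in neutrophil-like cells. DESeq2 gave 24 and 27 in HSC/MPP-like (second and last), 37 and 41 in granulocyte (first and last), 17, 22 and 25 in monocyte, 20, 24 and 17 in megakaryocyte, 17, 16 and 22 in erythroid, 22, 20 and 24 in basophil/mast progenitor-like and 8, 11 and 12 in neutrophil-like cells. Without a filter the counts were 7, 14 and 14 in monocyte, 6, 8 and 9 in neutrophil-like cells, and 1 for Tnfr2KO against Tnfr1KO-labelled in megakaryocyte progenitor-like cells. The doubled gate gave 3 and 0 in monocyte (second and last) and 0, 7 and 9 in basophil/mast progenitor-like cells. Between lineages, DESeq2 called 42 members in megakaryocyte and no filter 8 in basophil/mast progenitor-like cells. The counts over all genes under these alternatives are not set beside them. In the monocyte and erythroid fits above, DESeq2 also called more of all genes than edgeR. Its larger counts are therefore not a result about the members alone. Rps3a1 was at 0.056 for Dnmt3a against MxCre without Dnmt3a replicates 1 and 4. Rpl41 was at 0.027 for Tnfr2KO against Tnfr1KO-labelled with the replicate block and at -0.12 and 0.069 without Tnfr2KO replicate 1 and replicate 4.

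Leaving out 1 library at a time, the share difference in megakaryocyte progenitor-like cells lay between -7.42 and -1.11, between 2.64 and 8.95 and between 1.33 and 7.63 in the same 3 comparisons. In neutrophil-like cells it ran from -1.36 to 0.856 for the first and from -0.559 to 1.66 for the second. Called members over all cells ran from 0 to 15, 0 to 16 and 0 to 33. They ran from 7 to 24, 2 to 26 and 0 to 35 in HSC/MPP-like, 0 to 40, 0 to 38 and 3 to 46 in granulocyte, 0 to 4, 0 to 25 and 0 to 30 in monocyte and 4 to 5, 4 to 7 and 4 to 11 in megakaryocyte progenitor-like cells. In megakaryocyte progenitor-like and neutrophil-like cells, with 2 Dnmt3a libraries each, none of these was left out for the counts. Counts ran from 0 to 29, 0 to 8 and 0 to 40 in erythroid and 0 to 18, 4 to 16 and 6 to 23 in basophil/mast progenitor-like cells, and were 0, 0 to 3 and 0 to 17 in neutrophil-like cells. In basophil/mast progenitor-like against HSC/MPP-like cells they ran from 13 to 55. Counts over all genes are not set beside these ranges. Over all cells, calls over all genes also moved with the library left out, as given above. The ranges are therefore not a result about the members alone.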

Other observations

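Mature B cell-like cells, which entered no comparison, reached 20 cells in 8 libraries. Their ribosomal protein share was 32.0% and 34.8% in MxCre replicates 1 and 3, and 26.7% and 25.7% in Dnmt3a replicates 3 and 4. It was 29.9%, 36.0% and 33.4% in Tnfr1KO-labelled replicates 1 to 3 and 33.1% in Tnfr2KO replicate 1. The log2 ratio of short to other members in these cells was -3.32 and -3.79 in MxCre, -4.56 and -4.43 in Dnmt3a, -3.55, -3.49 and -3.50 in Tnfr1KO-labelled and -3.23 in Tnfr2KO. Among these 8 libraries the Dnmt3a values were the lowest on both measures. Dnmt3a replicate 2, whose share lay among the other groups over all cells, had 8 such cells and did not enter. Nor did Tnfr2KO replicate 4, also with 8, whose ratio over all cells lay among the Dnmt3a libraries. The single Tnfr2KO library held 22 such cells.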
